A study of Mus musculus with 8 samples.

Results

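The genes described here were 10 enzymes and enzyme relatives of sphingolipid and ceramide metabolism: Sptlc1, Sptlc2, Cers2, Cers4, Cers5, Sgms1, Ugcg, Asah1, Smpd1 and Cerkl. They were picked by name, and every probe on the array that a RefSeq accession ties to them was taken, without regard to its signal. This gave 15 probes for 10 of the 14848 genes that had a tested probe. 4 of the genes had more than 1 probe. All 15 probes were well above background on all 8 arrays, so that 10 of 10 genes entered the comparison.

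Sphingolipid synthesis starts in the endoplasmic reticulum, where serine palmitoyltransferase joins serine to palmitoyl-CoA, the saturated acyl donor that LPCAT1 also uses to make saturated phosphatidylcholine. Ceramide synthases then add an acyl chain of a length that depends on the synthase, and the ceramide receives a phosphocholine head group to become sphingomyelin or a glucose to become glucosylceramide, the base of the gangliosides. Sphingomyelinases and ceramidases run the path backward in the lysosome and at membranes. Ceramide is known as a lipid that accompanies apoptosis of photoreceptor cells, and mutations of CERKL cause inherited retinal degeneration.

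Gene expression was measured with total RNA of photoreceptor cells from mice labelled C57BL/6 at postnatal day 8 (P8) on 8 single-color Agilent arrays, 4 from mice labelled Lpcat1 HZ, which have a single working copy of Lpcat1, and 4 from mice labelled Lpcat1 KO, which lack it in the whole body. The cells had been pulled out of dissociated retina by their surface CD73, and the line, made on C57BL6/N, had been crossed with C57BL6/J against the rd8 allele of Crb1, with mice homozygous for that allele left out. The controls carried the deleted allele too, and no wildtype arrays were part of the comparison. The labels number the arrays from 1 to 4 in each group without naming animals, so that p-values measure the spread between these arrays, which may in part be technical. Values are log2 signals relative to the 75th percentile of the same array, called normalized log2 signals. Differences are KO minus HZ on that log2 scale, and a probe's level is compared only with itself.

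All arrays were on the same slide, KO in row 1 and HZ in row 2, so that row and genotype cannot be told apart, and the replicate number was the slide column. The scanner software called 458 spots of HZ replicate 4 non-uniform, and 2 to 25 of every other array. Lpcat1 itself, read by 1 probe whose position against the deleted part was not analysed here, differed by -0.037 (limma adjusted p = 0.931, standard error 0.11) and so did not tell the labels apart. All 15 rod markers were well above background on every array, and Nt5e, which encodes CD73, was at 4.27 to 4.39 on the HZ and 4.05 to 4.29 on the KO arrays.

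To ask whether loss of LPCAT1 changed the expression of enzymes along the sphingolipid path, which begins with the acyl donor of LPCAT1, the 10 genes were compared between KO and HZ, each by its brightest probe. Ugcg, which encodes the ceramide glucosyltransferase, was 1.29-fold higher on the KO arrays, and the other 9 genes differed by less than 1.2-fold. In RNA pooled from many cells, more cells that express a gene and more of its RNA per cell cannot be told apart. With limma and Benjamini-Hochberg adjustment over all tested probes, 0 of 10 genes passed an adjusted p of 0.05, as did 0% of all genes with a tested probe. At the looser pair of thresholds in the methods, a fold over 1.5 and an adjusted p under 0.5, 0 of 10 were called higher, against 0.33% of all genes. At an unadjusted p under 0.05, Ugcg was the single gene called, 1 of 10 against 9.3% of all genes in either direction and 5.81% of all genes with KO higher. The arrays of the groups did not overlap for 2 of 10 genes, Ugcg and Cers5, against 7.99% of all genes. Each of these shares is from few genes, and none is read as a property of the group. On the KO arrays 6 of the 10 genes were higher and 4 lower, and 56.8% of all genes were higher. The median difference was 0.029, as was that of all genes, but leaving out HZ replicate 1 made it 0.11 and leaving out KO replicate 2 made it 0.13. Over all tested probes the median difference was 0.0023, and it was -0.0048 and 0.0068 with those arrays left out in turn.

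**Figure D1:**
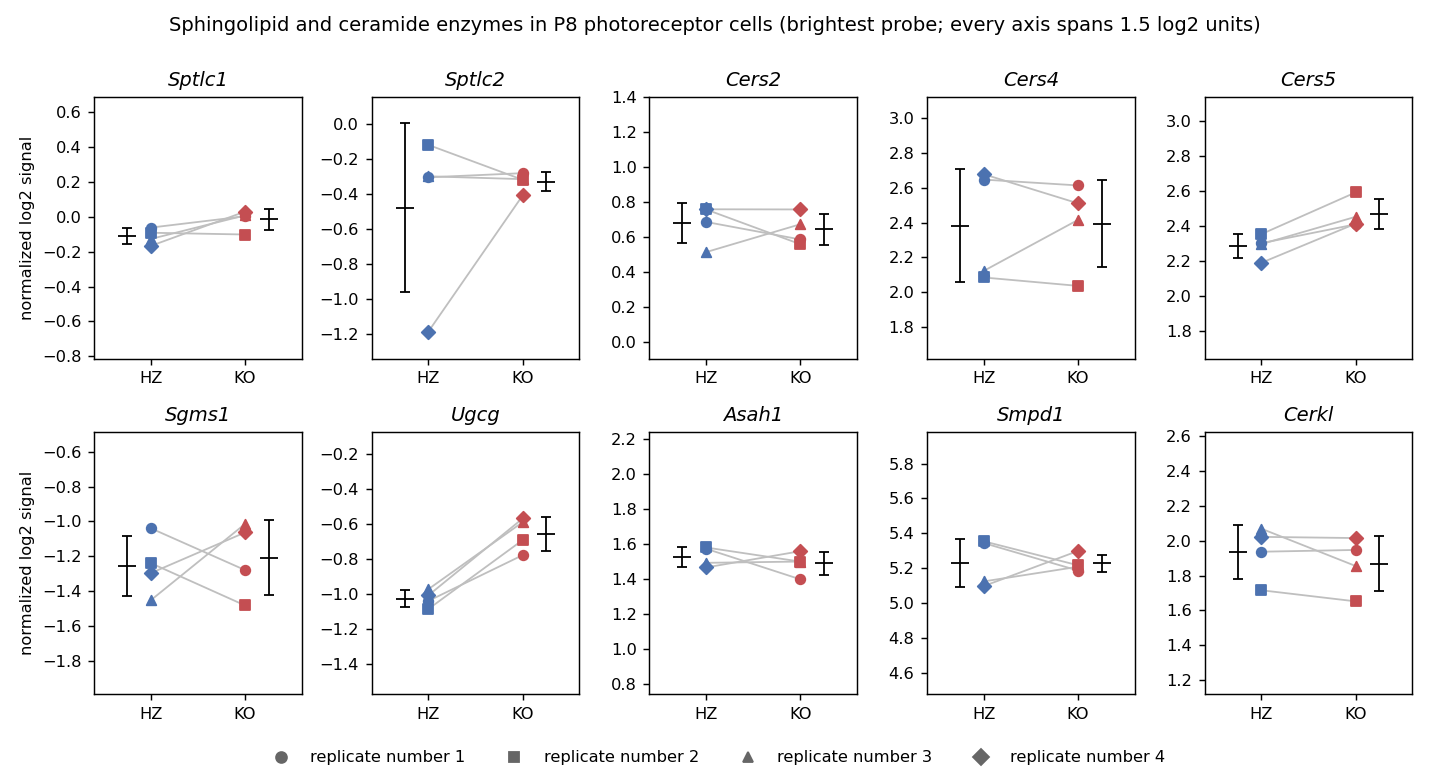
Normalized log2 signal (vertical axis, every panel spanning the same 1.5 log2 units) of the brightest probe of each gene on the 4 HZ (blue) and 4 KO (red) arrays; gray lines join arrays with the same replicate number, and black bars give mean ± SD. Ugcg and Cers5 are the 2 panels in which all KO arrays lie above all HZ arrays, and HZ replicate 4 of Sptlc2 lies far below the other arrays.

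The first step of synthesis was represented by Sptlc1 and Sptlc2, the subunits that together form the catalytic site of serine palmitoyltransferase. The normalized log2 signal of Sptlc1 was -0.062, -0.092, -0.13 and -0.17 on HZ replicates 1 to 4 and 0.0025, -0.10, 0.0080 and 0.029 on KO replicates 1 to 4. KO replicates 1, 3 and 4 lay above every HZ array, and KO replicate 2 lay among them. The difference was 0.097 (standard error 0.074, 95% interval -0.074 to 0.27, limma adjusted p = 0.738), and it was 0.0082 with normexp background correction. A second Sptlc1 probe differed by -0.039 (standard error 0.085, limma adjusted p = 0.903), so that the probes did not share a direction.

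Sptlc2 was measured by a single probe, at -0.30, -0.12, -0.30 and -1.19 on the HZ arrays and -0.28, -0.32, -0.31 and -0.41 on the KO arrays. HZ replicate 4 was lower than all the others, and the remaining values overlapped. Spots called non-uniform, of which that array had many, were left out of the averages, and a link to its Sptlc2 value was not tested. The difference of 0.15 (standard error 0.22, 95% interval -0.36 to 0.65, limma adjusted p = 0.856) rested on that array and was -0.090 without it. Sptlc2 was the 1 gene of the 10 whose 95% interval reached past a 1.5-fold change.

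The ceramide synthases were Cers2, which makes ceramides with very long acyl chains, Cers4, which uses long and very long chains, and Cers5, which prefers palmitoyl-CoA and makes C16 ceramide. Cers5 was at 2.30, 2.35, 2.30 and 2.19 on the HZ arrays and at 2.41, 2.59, 2.45 and 2.41 on the KO arrays. Every KO array was above every HZ array, so that the KO array was necessarily the higher in all 4 pairs of equal replicate number. The difference was small, 0.18 or 1.13-fold (standard error 0.082, 95% interval -0.0066 to 0.37), and did not pass the test (limma adjusted p = 0.620). Over the alternatives in processing it lay between 0.14 and 0.21, with an adjusted p of 0.335 to 0.902.

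Cers2 did not show such a separation. Its values were 0.69, 0.76, 0.51 and 0.76 on the HZ arrays and 0.59, 0.56, 0.67 and 0.76 on the KO arrays, which overlapped throughout. The difference was -0.035 (standard error 0.092, 95% interval -0.25 to 0.18, limma adjusted p = 0.921), and a second probe gave 0.034 (standard error 0.088). Cers4 ran from 2.09 to 2.68 on the HZ arrays and from 2.04 to 2.61 on the KO arrays, a wide spread within both groups that is described by replicate number further on. Its difference between the groups was 0.011 (standard error 0.19, 95% interval -0.42 to 0.44, limma adjusted p = 0.990), and its sign turned under other scalings (-0.031 with quantile normalization).

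At the branch where ceramide receives its head group, the genes were Sgms1, the sphingomyelin synthase of the Golgi, and Ugcg, which commits ceramide to glucosylceramide and gangliosides. Sgms1 was at -1.04, -1.24, -1.45 and -1.30 on the HZ arrays and at -1.28, -1.48, -1.01 and -1.06 on the KO arrays. The KO array was lower by 0.24 in each of the pairs numbered 1 and 2 and higher by 0.44 and 0.23 in the pairs numbered 3 and 4. The mean difference was 0.047 (standard error 0.14, 95% interval -0.26 to 0.36, limma adjusted p = 0.928).

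Ugcg had 3 probes. The brightest, A_51_P332717, was at -1.04, -1.09, -0.97 and -1.01 on the HZ arrays and at -0.78, -0.69, -0.59 and -0.57 on the KO arrays. The HZ arrays lay close together, and the lowest KO array was above the highest HZ array. The difference was 0.37 (standard error 0.082, 95% interval 0.18 to 0.56), with a limma adjusted p of 0.362. The second probe, A_52_P95910, was at -1.55, -1.36, -1.63 and -1.75 on the HZ arrays and at -0.96, -0.90, -0.96 and -0.94 on the KO arrays. Here too the groups did not overlap, and the KO arrays were nearly level. The difference was 0.64 or 1.55-fold (standard error 0.098, 95% interval 0.41 to 0.86, limma adjusted p = 0.279). This probe passed the looser thresholds, as did 0.227% of all tested probes with KO higher.

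The third and dimmest Ugcg probe, A_65_P00596, was at -3.75, -3.67, -3.61 and -3.35 on the HZ arrays and at -3.41, -3.50, -3.15 and -2.91 on the KO arrays. The groups overlapped, since HZ replicate 4 was above KO replicates 1 and 2. The difference was 0.35 (standard error 0.15, 95% interval 0.0013 to 0.70, limma adjusted p = 0.611), and it was 0.20 with normexp background correction (adjusted p = 0.630). On each of the 3 probes, all 4 pairs of equal number had the KO array higher, which on the 2 brighter probes follows from the groups not overlapping. The probes of a gene read the same RNA samples and are not replicates of the condition. The mean of the 3 probes differed by 0.45 (standard error 0.086, limma adjusted p = 0.352). Leaving out any single array kept the difference of the brightest probe between 0.34 and 0.41 and its adjusted p between 0.271 and 0.740.

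**Figure D2:**
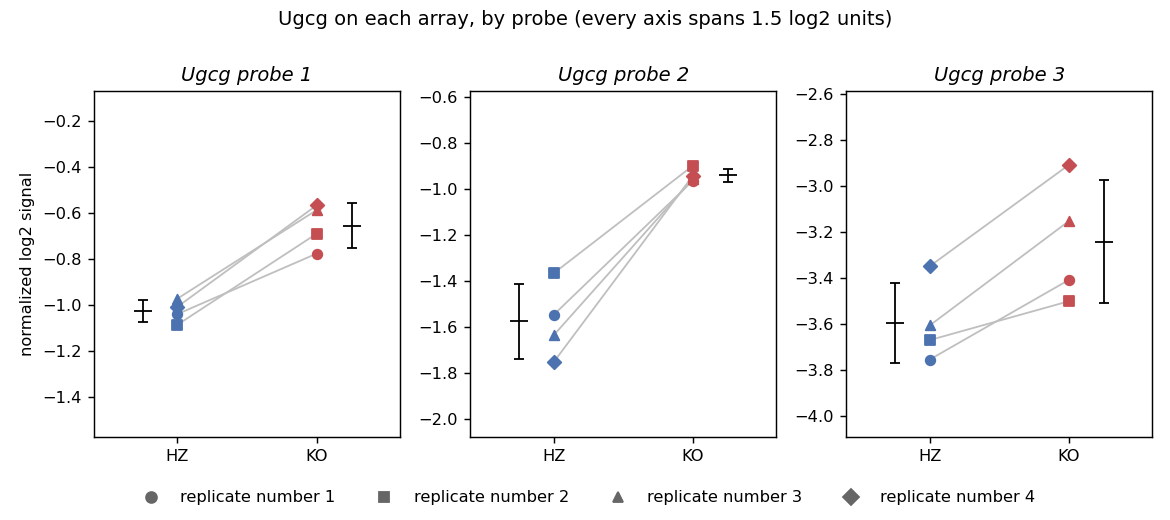
Normalized log2 signal (vertical axis, spanning 1.5 log2 units in each panel) of the 3 Ugcg probes, from the brightest to the dimmest, on the HZ (blue) and KO (red) arrays; gray lines join arrays with the same replicate number, and black bars give mean ± SD (n = 4). On each probe the lines of the same 4 pairs rise from HZ to KO, by a mean of 0.37, 0.64 and 0.35, and the groups overlap on the third probe alone.

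The enzymes of breakdown were Smpd1, the acid sphingomyelinase, and Asah1, the acid ceramidase, both of the lysosome. Smpd1 was at 5.34, 5.35, 5.12 and 5.10 on the HZ arrays and at 5.19, 5.22, 5.21 and 5.30 on the KO arrays. The groups overlapped, and the means of 5.23 ± 0.14 (SD, n = 4) and 5.23 ± 0.049 (SD, n = 4) were alike. The difference was -0.0024 (standard error 0.092, 95% interval -0.21 to 0.21, limma adjusted p = 0.995). Asah1 was at 1.57, 1.58, 1.49 and 1.47 on the HZ arrays and between 1.398 and 1.56 on the KO arrays. These groups overlapped as well, with a difference of -0.039 (standard error 0.077, 95% interval -0.22 to 0.14, limma adjusted p = 0.893). A second Asah1 probe gave -0.077 (standard error 0.086), which turned to 0.10 under normexp background correction.

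Cerkl encodes a ceramide kinase-like protein of photoreceptor cells for which no lipid substrate is settled. It was at 1.94, 1.72, 2.07 and 2.02 on the HZ arrays and at 1.95, 1.65, 1.85 and 2.01 on the KO arrays. The arrays overlapped, with replicate 2 lowest in both groups. The difference was -0.069 (standard error 0.12, 95% interval -0.34 to 0.20, limma adjusted p = 0.874).

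The precision of these comparisons can be read from the intervals, which the number of arrays limits. For 9 of the 10 genes the 95% interval of the brightest probe lay within a 1.5-fold change in either direction, and for 3 of them, Cers2, Asah1 and Smpd1, it lay within 1.2-fold. The interval of Ugcg lay above 0 and reached past 1.2-fold. Each of the other 6 intervals included both 0 and a change of 1.2-fold. The probes of a gene pointed the same way for Ugcg and Asah1 and opposite ways for Sptlc1 and Cers2.

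**Figure D3:**
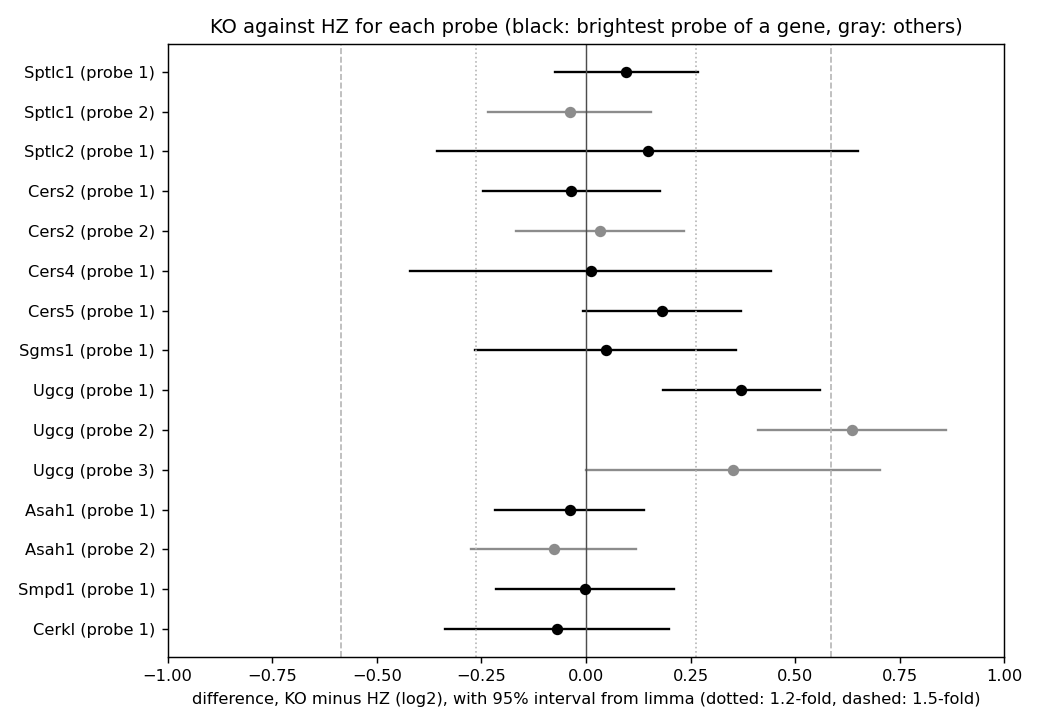
Difference between KO and HZ (horizontal axis, log2) with its 95% interval from limma for each of the 15 probes, numbered from the brightest within a gene. The 3 Ugcg probes have intervals above 0, all other intervals include 0, and that of Sptlc2 is the widest.

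The 10 genes were then compared by replicate number, which was also the column on the slide. In a model with genotype and number as terms, Cers4 was the 1 of 10 genes with an unadjusted p under 0.05 for the number (limma adjusted p = 0.327), against 13.2% of all genes, and 0% of all genes passed an adjusted p of 0.05. Cers4 was at 2.65 and 2.61 on the HZ and KO arrays numbered 1, at 2.09 and 2.04 on those numbered 2, at 2.12 and 2.42 on those numbered 3, and at 2.68 and 2.51 on those numbered 4. Number 2 was thus lowest in both groups, by a mean of 2.06 against 2.27 to 2.63. Cerkl had the same low number, with a mean of 1.68 for number 2 against 1.94 to 2.02 for the others, and did not pass (limma adjusted p = 0.418). The dimmest Ugcg probe was highest with number 4 in both groups (limma adjusted p = 0.336). The marker score of Muller glia was highest with number 2 in both groups, at 0.44 and 0.38 against -0.26 to 0.083 on the other arrays, and its part in the Cers4 and Cerkl values was not tested. The number as a block in the genotype comparison left 0 of 10 genes past an adjusted p of 0.05, with an adjusted p of 0.322 for Ugcg and 0.423 for Cers5.

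Beyond these 10 genes, 53 other genes of the sphingolipid pathway were listed, of which 51 had a probe and 40 were tested. With limma, 0 of 40 passed an adjusted p of 0.05, 23 were higher and 17 lower on the KO arrays (57.5% higher, against 56.8% of all genes), and the median difference was 0.10 against 0.029 over all genes. At an unadjusted p under 0.05, 2 of 40 were called, both with KO higher (5%, against 9.3% of all genes). By the brightest probe of each gene, the groups did not overlap for 0 of 40, against 7.99% of all genes. With the replicate number as a block, 6 of 40 had an unadjusted p under 0.05, against 12.5% of all genes, and 0 an adjusted p under 0.05. These 6 were B4galt5, Hexa, Cert1, Sphk1 and S1pr2, higher on the KO array in all 4 pairs, and St8sia1, lower in all 4. Having been picked by a p within pairs, they draw no separate support from this agreement. S1pr2 was well above background on 1 HZ and 3 KO arrays, and so was tested mainly through the group in which it was higher. By replicate number itself, 7 of 40 had an unadjusted p under 0.05, against 13.2% of all genes.

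The 2 genes called by genotype without the block were B4galt5 and Hexa, which act on the lipids that follow Ugcg. B4galt5 makes lactosylceramide from glucosylceramide. It was at -1.46, -0.61, -0.99 and -1.49 on the HZ arrays and at -0.68, -0.42, -0.62 and -0.70 on the KO arrays, with HZ replicate 2 above 3 of the KO arrays. The difference was 0.53 (standard error 0.20, limma adjusted p = 0.569). Hexa, the alpha subunit of the hexosaminidase that degrades ganglioside GM2, was at 1.12, 1.28, 0.97 and 1.14 on the HZ arrays and at 1.36, 1.38, 1.26 and 1.45 on the KO arrays, which is 0.23 higher (standard error 0.092, limma adjusted p = 0.585). Leaving out HZ replicates 1 or 4 or KO replicate 2 ended both calls. Leaving out KO replicate 3 ended that of B4galt5, and leaving out HZ replicate 3 or KO replicates 1 or 4 ended that of Hexa.

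The role groups are described by counts, which are read beside the 56.8% of all genes that were higher on the KO arrays. The serine palmitoyltransferase subunits and regulators had 5 of 6 tested genes higher (median difference 0.15). Among them were Ormdl3, an inhibitor of the enzyme, at 0.26 (standard error 0.18) and 0.074 without HZ replicate 4, and Kdsr, which carries out the second step, at 0.22 (standard error 0.11). On the brightest Kdsr probe the groups overlapped. A second, dimmer Kdsr probe was at 0.21 (standard error 0.082, limma adjusted p = 0.581), with every KO array above every HZ array. In either direction, the groups did not overlap on 2172 of 34303 tested probes. All 4 tested genes of ceramide transfer and sphingomyelin synthesis were higher (median 0.17), with Cert1, which carries ceramide to the Golgi, at 0.32 (standard error 0.15, and 0.089 with the block). Of 5 genes of glycosphingolipid synthesis 3 were higher (median 0.071). These included St3gal5, which makes ganglioside GM3, at 0.28 (standard error 0.18) and 0.13 without HZ replicate 4, while St8sia1, which makes GD3, was at -0.25 (standard error 0.14, and 0.071 with the block) and its other probe at 0.26.

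In breakdown, 2 of 5 sphingomyelinases and ceramidases were higher (median -0.062), as were 4 of 8 genes of glycosphingolipid breakdown (median 0.0071). Galc, the galactosylceramidase, was at -0.40 (standard error 0.43) and at 0.040 without HZ replicate 4. Of 7 genes of ceramide and sphingosine phosphorylation and turnover 3 were higher (median -0.0036), with Sphk1, a sphingosine kinase, at 0.45 (standard error 0.30, and 0.16 with the block) and Spns2, an exporter of sphingosine-1-phosphate, at -0.29 (standard error 0.27) and -0.011 without HZ replicate 2. S1pr2, a receptor of that lipid, was at 0.93 (standard error 0.45, and 0.36 with the block) and was well above background on 1 HZ array and 3 KO arrays only. The list of further ceramide synthases and the desaturases had 3 tested genes, of which 1 was higher (Cers3, by 0.20 with a standard error of 0.10). Cers6 was not well above background on enough arrays to be tested, and Cers1 was not among the named probes. None of the differences in these role groups passed an adjusted p of 0.05 with limma.

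**Figure D4:**
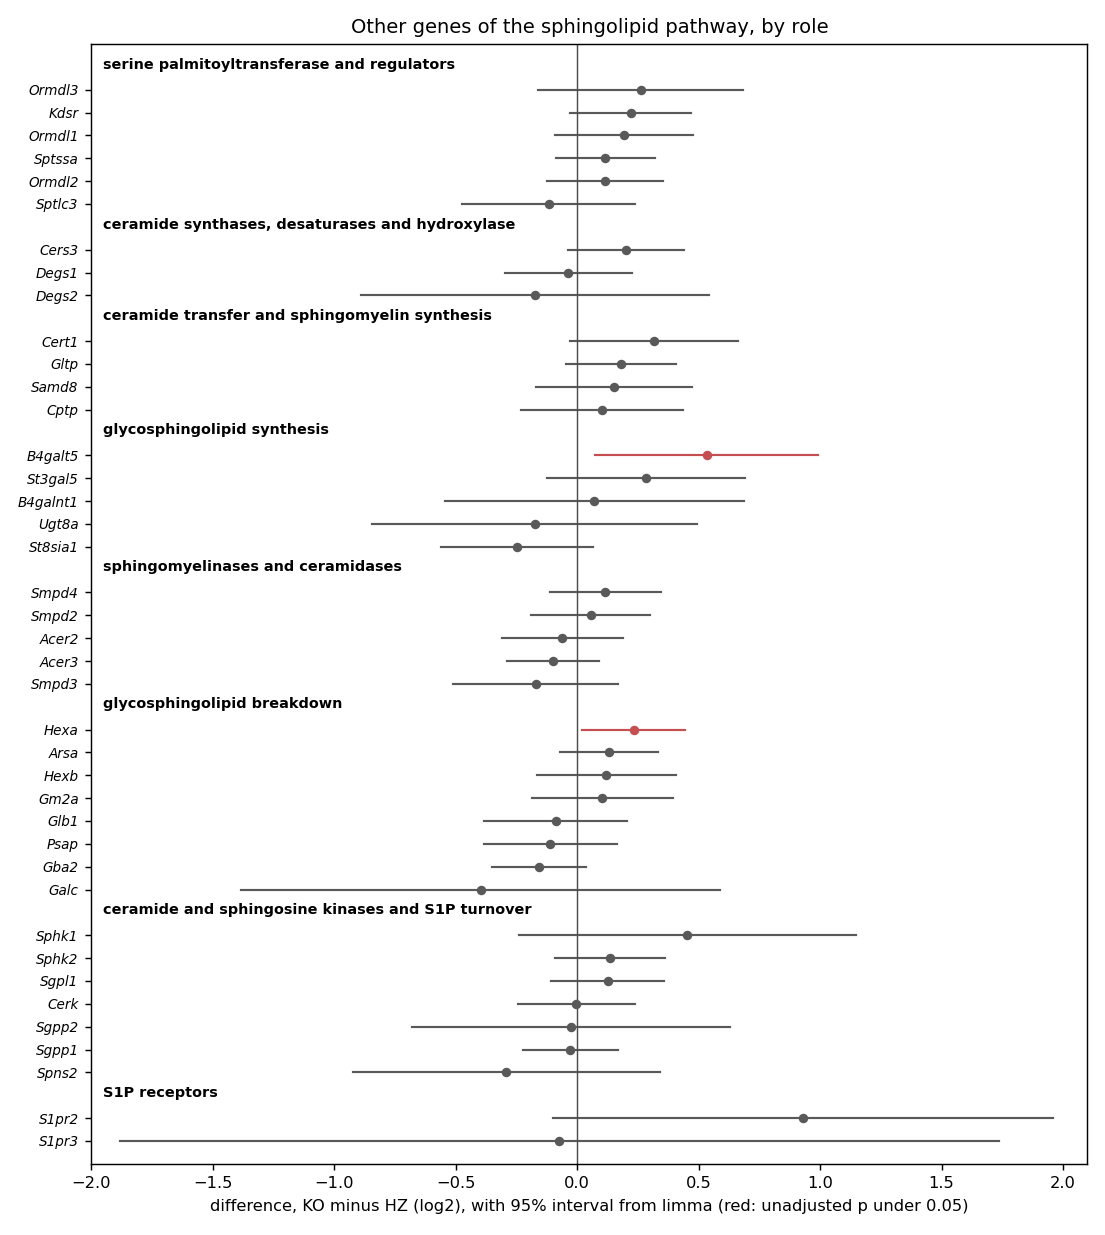
Difference between KO and HZ (horizontal axis, log2) with its 95% interval from limma for the 40 tested genes of the wider pathway, grouped by role. The 2 genes in red, B4galt5 and Hexa, had an unadjusted p under 0.05, and the intervals of the other genes include 0.

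Markers of other retinal cells were set beside the Ugcg and Cers5 values, since RNA of such cells can enter the isolated fraction. A marker score is the mean deviation of a list's genes from their mean over the 8 arrays, in log2 units. The 14 tested of 15 markers of the retinal pigment epithelium (RPE) were all lower on the KO arrays, and the score was 1.44, 0.0021, 0.79 and 0.75 on the HZ arrays and -0.14, -0.89, -0.44 and -1.52 on the KO arrays. Rpe65, the isomerase that defines these cells, was at -0.55, -2.18, -1.06 and -1.21 on the HZ arrays and at -2.65, -3.83, -3.00 and -5.03 on the KO arrays. The summed signal of the list was 15.7 to 42.8 times the 75th percentile on the HZ arrays and 7.93 to 14.9 times on the KO arrays. The groups differed with p = 0.0286 in an exact permutation test, two-sided, the smallest p that 4 against 4 arrays allow, and with an adjusted p of 0.257 over the 9 lists. Within the HZ arrays the score spanned 0.0021 to 1.44 and the brightest Ugcg probe -1.09 to -0.97. Within the KO arrays the score spanned -1.52 to -0.14, and that probe was at -0.78, -0.69, -0.59 and -0.57 on replicates 1 to 4.

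The 10 microglia markers were all higher on the KO arrays, with scores of -0.86, -0.41, -0.56 and 0.36 on the HZ arrays and 0.78, 0.44, 0.015 and 0.24 on the KO arrays (exact permutation p = 0.0857, adjusted p = 0.257) and a summed signal of 2.67 to 6.09 against 4.32 to 7.58. HZ replicate 4 had a higher microglia score than KO replicates 3 and 4. On that array the brightest and second Ugcg probes, at -1.01 and -1.75, were below all 4 KO arrays. The dimmest Ugcg probe, at -3.35, was above KO replicates 1 and 2, at -3.41 and -3.50. The 3 tested of 5 red blood cell markers were higher on the KO arrays (exact permutation p = 0.0571, adjusted p = 0.257). The rod score ran from -0.099 to 0.23 on the HZ arrays and from -0.14 to 0.097 on the KO arrays (exact permutation p = 0.343), with 12 of 15 markers lower on the KO arrays. For the other lists, of cone, Muller glia, bipolar, endothelial and amacrine, horizontal and ganglion cells, the exact permutation p was 0.229 or higher. In them, 8 of 8 cone markers and 3 of 4 tested amacrine, horizontal and ganglion markers were higher on the KO arrays. Lower were 7 of 8 bipolar, 5 of 8 Muller glia and 3 of 4 tested endothelial markers. Of these lists, only 4 of 6 endothelial markers and 4 of 12 amacrine, horizontal and ganglion markers were tested. Of the markers that entered the scores, 11 of 14 for RPE and 8 of 10 for microglia were well above background on all 8 arrays. The part of these cells in the Ugcg and Cers5 values was not tested.

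**Figure D5:**
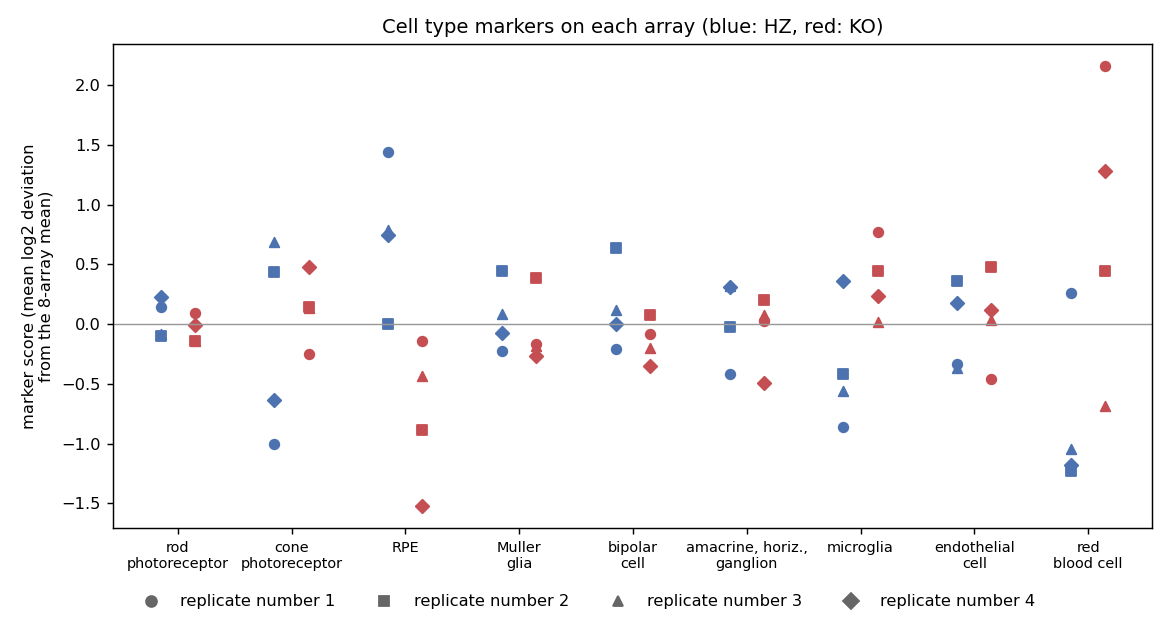
Marker score (vertical axis, mean log2 deviation from the mean over the 8 arrays) for each of the 9 marker lists on every HZ (blue) and KO (red) array, with a symbol for each replicate number. The RPE scores are the only ones in which the groups do not overlap, and the Muller glia score is highest with number 2 in both groups.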

How the data were processed

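Total RNA of isolated P8 photoreceptor cells was hybridised to single-color arrays, 4 labelled Lpcat1 HZ and 4 labelled Lpcat1 KO. The files deposited by the authors hold spot intensity values of Agilent Feature Extraction (version 10.7.1.1 per the submitters' processing notes), with the background already subtracted. A table of log2 values that the authors had shifted by the 75 percentile and centred on each probe's median over the 8 arrays was used as an alternative.

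From the intensities, log2 signals were reduced by each array's 75th percentile, and the spots of a probe were averaged without those marked as outliers. Probes were named through RefSeq accessions with a table of assembly GRCm38.p6, which gave names only (32994 of 56605 probes matched). A probe was tested if more than 50% of its spots rose well above background on 4 or more arrays and at least 3 values remained in each group (34303 probes). The functions lmFit and eBayes (limma 3.58.1, run in R 4.3.3, with version 1.17.8 of data.table) gave two-sided tests with Benjamini-Hochberg adjustment over these probes, for genotype and, as an F test, for replicate number. A gene is given by its probe with the highest mean. The code was tested on simulated data. Plots were drawn with matplotlib 3.10.9.

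The 10 genes, the pathway list, the marker lists and the tests were chosen with earlier results of these data known. All 10 genes are named, with the 12 pathway genes that had an unadjusted p under 0.05 or the next largest differences. An item of the pathway list is not reported here and was left out of its counts. Other genes and probes were named after their values were seen where a count or a disagreement between probes asked for it.

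The replicate numbers were checked as pairs. After removal of the group means, arrays of equal number correlated with r of 0.172 to 0.337, which is over 0.1 for 4 of 4 pairs, and arrays of unequal number with r of -0.337 to 0.117. The numbers were therefore taken to pair the arrays, by the slide column or something that goes with it. Settings tried as alternatives were quantile normalization, normexp background correction (offset 50), the percentile taken over probes above background on every array, a filter on dim probes that was absent or stricter, trend and robust eBayes, the methods' t-test, a replicate block, the authors' values, other thresholds, averaging a gene's probes, and leaving out each array.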

Additional observations from a re-analysis of the deposited data

Results flagged for a closer look

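Of 72 groups of 4 values examined, over the probes of the 10 genes, the named pathway genes and the marker scores, 5 held an array set apart from the other 3 by most of the group's range, and chance alone gives about 5% of groups, or 3.6. None of the 5 was a probe of the 10 genes, but Sptlc2 on HZ replicate 4, at -1.19 against -0.30 to -0.12, fell just short of being flagged. Spns2 was at -2.14 on HZ replicate 2 against -3.31 to -3.19 on the other HZ arrays. Ormdl3 was at 4.64 on HZ replicate 4 against 5.35 to 5.43. Kdsr was at 2.05 on HZ replicate 1 against 1.94 to 1.95. The Muller glia marker score was 0.38 on KO replicate 2 against -0.26 to -0.17 on the other KO arrays, and the red blood cell marker score was 0.26 on HZ replicate 1 against -1.23 to -1.04 on the other HZ arrays.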

How the results depend on the processing

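The number of genes past an adjusted p of 0.05 was 0 of 10 and 0 of 40 under every alternative run. At an unadjusted p under 0.05, the 1 of 10 genes, Ugcg, became 2 with normexp background correction and with trend and robust settings (Ugcg and Cers5), 3 under the methods' t-test (Sptlc1 as well), and 1 to 2 with each array left out. The 2 of 40 pathway genes became 6 with normexp, 1 without a filter on dim probes, 4 with trend and robust settings, 6 with the replicate block, and 0 to 4 with each array left out, lowest without HZ replicate 1 and highest without HZ replicate 2. Over all tested probes the share past that p was 8.17%, and 9.96% with normexp, 5.08% without the filter, 9.14% under the t-test, 8.93% with trend and robust settings, 11.9% with the block, and 5.93% to 14.8% with each array left out. The count by replicate number, 1 of 10, was 2 with normexp. The shares above are for genotype, and without a share for replicate number under normexp this change is not read as a result. The median difference of the 10 genes lay between -0.021 and 0.13 with each array left out, and the replicate block changed no other call. Ugcg kept its direction in 18 of 18 alternatives (0.34 to 0.45, adjusted p 0.179 to 0.786), and Cers5 did so as well.

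Differences near 0 changed sign. Cers4 was -0.031 with quantile normalization and -0.020 with a percentile over probes above background on all arrays, Smpd1 was 0.12 with normexp and 0.014 in the authors' values, the second Asah1 probe was 0.10 with normexp, and St8sia1 was 0.0052 as the mean of its probes. With each array left out, the ranges that crossed 0 were -0.090 to 0.27 for Sptlc2, -0.088 to 0.13 for Cers4, -0.018 to 0.14 for Sgms1, -0.047 to 0.039 for Smpd1, -0.14 to 0.0030 for Cerkl, -0.087 to 0.0049 for the second Sptlc1 probe and -0.64 to 0.040 for Galc. The cause was not tested. S1pr2 was well above background on 4 of 8 arrays and Galc on 7 of 8.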
